A study of Mus musculus with 14 samples.

Results

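Heat shock chaperones are the proteins that fold, refold and hold other proteins, and whose genes are switched on when proteins unfold. The set described here was named by gene symbol as Hspa1a, Hspa1b, Hspa8, Hsp90aa1, Hsp90ab1, Hsph1, Dnajb1, Hspb1, Hspe1 and Hspd1. All probe sets of the lung array table that carried 1 of these symbols alone were taken, which gave 22 of 45101 probe sets and covered 9 of the 10 genes. No probe set carried the symbol Hsp90ab1 alone, so that gene was not analysed here. Lung RNA was measured on 14 Affymetrix mouse arrays, 1 per sample. The animals were BALB/c mice. In 4 samples they carried 4T1 mouse breast carcinoma cells, a line that the labels call metastatic, in the fourth mammary fat pad. In 5 samples the mice carried 67NR cells, which the labels call nonmetastatic, at the same site, and in 5 normal samples the mice had received PBS without cells. The protocol gives 6 days from inoculation, or a tumour of about 50 mm3, as the time of sampling, and all groups shared a PBS flush of the lung vessels. Each tumour class rested on a single cell line. Whether each sample is a separate mouse is not in the labels, and p-values therefore cover only the spread between these samples.

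Under stress, unfolded protein draws HSP70 and HSP90 away from heat shock factor 1, which then forms trimers, binds heat shock elements in the promoters and raises transcription within minutes. Heat shock elements are inverted repeats of the letters GAA. HSP70 proteins bind unfolded stretches with the help of J-domain partners and of HSP110 exchange factors, HSP90 matures kinases and steroid receptors, small heat shock proteins hold unfolded protein, and HSP60 with HSP10 forms the folding chamber of mitochondria. In lung, as in other tissues, the inducible forms are known to rise with heat and oxidant injury.

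The promoters of the members show how widely that element is shared, so the 120 bases before the start are given for 5 members that hold a match. Hspd1 is the other member with one, on the stretch shown for Hspe1. The sequences are those of RefSeq on GRCm38.p6, 5′ to 3′ on the strand of the gene, with capitals on each match to GAANNTTC or TTCNNGAA. They cover chr17:34972157-34972276 on the minus strand for Hspa1a and chr17:34959239-34959358 on the minus strand for Hspa1b. They cover chr1:55088028-55088147 on the plus strand for Hspe1, chr5:149636337-149636456 on the minus strand for Hsph1 and chr5:135887799-135887918 on the plus strand for Hspb1.
Hspa1a: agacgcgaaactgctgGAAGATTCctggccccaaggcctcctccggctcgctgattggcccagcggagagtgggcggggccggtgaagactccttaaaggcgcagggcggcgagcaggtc
Hspa1b: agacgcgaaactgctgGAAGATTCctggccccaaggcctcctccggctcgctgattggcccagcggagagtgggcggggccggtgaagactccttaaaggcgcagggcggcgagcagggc
Hspe1: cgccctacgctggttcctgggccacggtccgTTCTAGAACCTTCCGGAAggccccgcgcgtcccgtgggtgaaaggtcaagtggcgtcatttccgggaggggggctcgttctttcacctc
Hsph1: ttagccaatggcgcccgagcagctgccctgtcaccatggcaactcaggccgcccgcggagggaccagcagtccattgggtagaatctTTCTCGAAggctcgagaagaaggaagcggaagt
Hspb1: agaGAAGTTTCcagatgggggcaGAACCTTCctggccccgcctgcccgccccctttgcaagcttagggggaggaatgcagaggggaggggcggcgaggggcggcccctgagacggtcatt
Of the 9 measured genes, 7 had a promoter entry, and Hspa8 and Hsp90aa1 had none. In the 250 bases before the start, 6 of the 7 genes held a match to GAANNTTC or TTCNNGAA (85.7%). The share was 12.8% of all 32851 promoter entries, and 12.1% when counted by gene over 9882 other tested genes with an entry. Each of these patterns reads the same on both strands. Dnajb1 was the member without a match, which says only that these letters are not in that window. A longer pattern with a further unit is GAANNTTC followed by NNGAA or TTCNNGAA followed by NNTTC, which are each other's reverse complement. It was found for Hspe1 and Hspd1 (28.6% of the 7), against 0.466% of all promoter entries and 0.455% of the other genes. Hspe1 and Hspd1 are neighbours read in opposite directions, and their windows share the same stretch. Hspa1a and Hspa1b matched at 247 of 250 bases (98.8%). The matches of Hspe1 and Hspd1, and those of Hspa1a and Hspa1b, are therefore not separate ones. A CCAAT box (CCAAT, either strand) was found for Hspa1a, Hspa1b, Hsph1 and Dnajb1 and in 33.8% of all promoters. These are matches of letters, not measured binding.

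All values below are probe set intensities as deposited, and differences are on the log2(intensity + 16) scale. Array medians ranged from 113.2 to 116.1, and arrays of the same group differed by 0.35 to 0.46 (root mean square, log2 scale), so no array repeated another. Lung genes were bright on every array, with the surfactant gene Sftpc between 6203 and 9203 and the airway gene Scgb1a1 between 11382 and 15783. Neutrophil markers summed to 24409 to 34429 in 4T1 lungs, 5918 to 9514 in 67NR lungs and 4381 to 7914 in normal lungs. The genes of circadian clock output summed to 2645 on the array of 67NR replicate 1 and 3843 on that of replicate 3, below the other arrays. In bulk tissue, fewer cells of a type and less RNA per cell cannot be told apart.

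Hspa1a and Hspa1b encode the stress-inducible HSP70. Hspa1a (1452388_at) had intensities of 953, 1791, 376 and 3088 in 4T1 lungs, 432, 1554, 2392, 2285 and 593 in 67NR lungs, and 1364, 2956, 4133, 417 and 769 in normal lungs. Every group held lungs at both ends, and all groups overlapped. The highest array stood 8.2 times over the lowest within 4T1 lungs, 5.54 times within 67NR lungs and 9.9 times within normal lungs. Hspa1b (1452318_a_at) had 2101, 4371, 859 and 5525 in 4T1 lungs, 1012, 4252, 4607, 5107 and 2090 in 67NR lungs, and 2542, 5275, 6317, 836 and 1861 in normal lungs. The lowest arrays of both genes were 4T1 replicate 3, 67NR replicate 1 and normal replicate 4. The other Hspa1b probe sets, 1427126_at and 1427127_x_at, followed the same arrays with r of 0.99 to 1.0 over 14 arrays. Since the 2 genes are near-identical copies, their probe sets may share RNA, and the r of 0.97 between them is not a measure of separate genes.

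**Figure D1:**
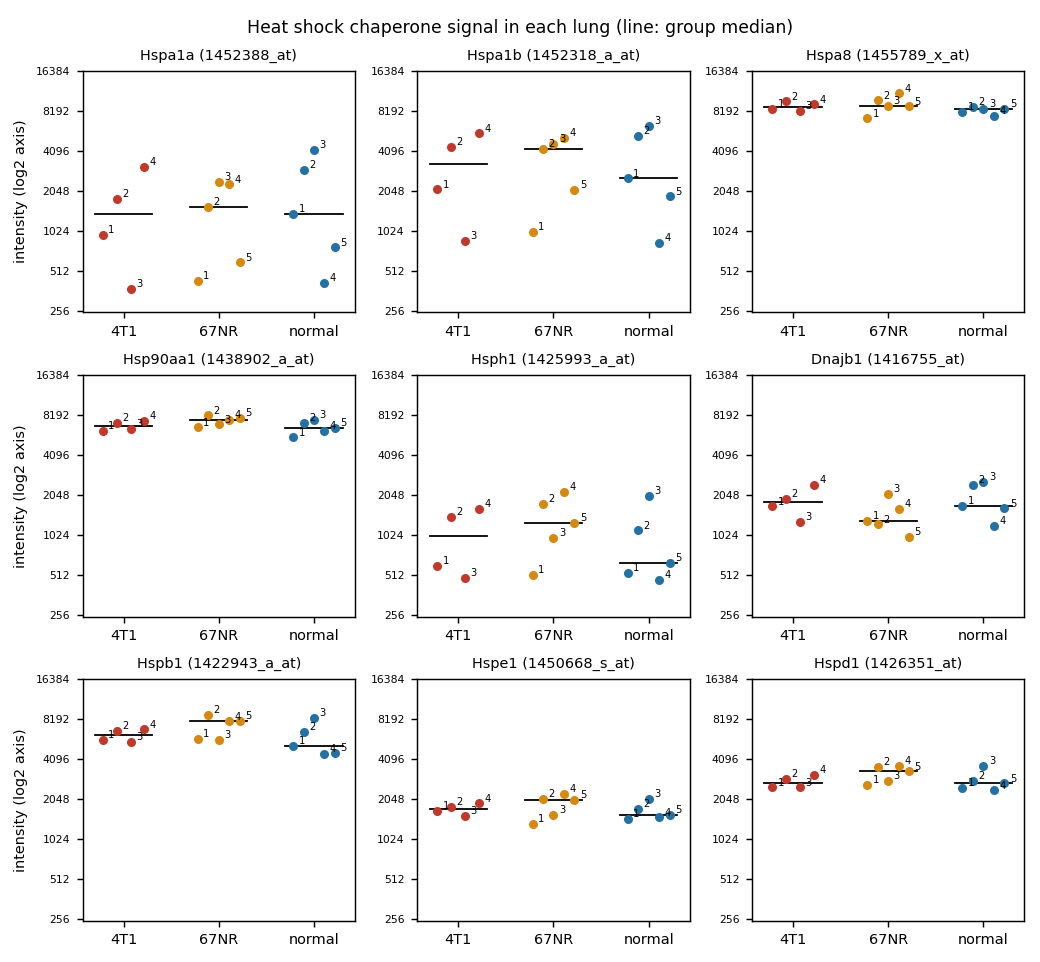
Each panel plots the intensity (log2 axis) of the brightest probe set of a member gene, with a point for each lung of the 4T1, 67NR and normal groups and a line at the group median. Hspa1a runs from 376 to 3088 in 4T1 lungs, 432 to 2392 in 67NR lungs and 417 to 4133 in normal lungs.

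None of the Hspa1a and Hspa1b probe sets was called by limma in any comparison (0.3% of all probe sets tested were called in 4T1 against normal, 0% in 67NR against normal and 0.453% in 4T1 against 67NR lungs). For Hspa1b (1427126_at) the difference between 4T1 and normal lungs was -0.09 (SE 0.80, 95% interval -1.79 to 1.62, adjusted p = 0.998). Between 67NR and normal lungs it was 0.36 (95% interval -1.25 to 1.97, adjusted p = 0.928). Both intervals reach past 1 on the log2 scale on either side of 0. Hspa1a differed by -0.23 between 4T1 and normal lungs (adjusted p = 0.991) and by -0.26 between 67NR and normal lungs (adjusted p = 0.944).

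Hspa8 encodes the constitutive HSP70. Its probe set 1455789_x_at had 8392, 9614, 8109 and 9134 in 4T1 lungs, 7169, 9802, 8923, 11066 and 8826 in 67NR lungs, and 8047, 8690, 8507, 7457 and 8462 in normal lungs. The groups overlapped, and the highest over lowest ratio was 1.19 in 4T1 lungs, 1.54 in 67NR lungs and 1.17 in normal lungs. The dim probe set 1431182_at had 87.2, 86.3, 82.4 and 124 in 4T1 lungs, 99.4, 82.2, 96.8, 83.5 and 82 in 67NR lungs, and 117, 112, 109, 101 and 152 in normal lungs. Its mean log2 level over all arrays, 6.85, was just above the cut of 6.83 for probe sets tested. Only its normal mean (7.06) was above that cut, against 6.78 in 4T1 and 6.71 in 67NR lungs. It was thus tested only through the arrays where it was high, so its difference is no support for a lower level. This was the 1 member probe set of 20 whose 67NR arrays all lay below the normal arrays (0.639% of all probe sets tested). Wholly above lay 0 of 20 (0.892% of all). Its difference was -0.35 (SE 0.11, 95% interval -0.58 to -0.12, adjusted p = 0.388), and the other 3 Hspa8 probe sets stood at 0.09 to 0.14. Its r with them was -0.30 to -0.13 over 14 arrays.

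HSP110, the exchange factor that helps HSP70 release its clients, is encoded by Hsph1. Hsph1 (1425993_a_at) had 604, 1398, 489 and 1610 in 4T1 lungs, 514, 1762, 977, 2155 and 1263 in 67NR lungs, and 529, 1109, 2026, 469 and 629 in normal lungs. The lowest arrays were again 4T1 replicate 3, 67NR replicate 1 and normal replicate 4. The difference between 67NR and normal lungs was 0.55 (SE 0.47, 95% interval -0.46 to 1.55, adjusted p = 0.803). Dnajb1, the J-domain partner that hands unfolded protein to HSP70, had 1679, 1925, 1293 and 2444 (1416755_at) in 4T1 lungs, 1308, 1233, 2101, 1611 and 991 in 67NR lungs, and 1687, 2440, 2554, 1207 and 1624 in normal lungs. Its lowest 67NR array was replicate 5, not replicate 1. Its difference between 67NR and normal lungs was -0.38 (SE 0.24, 95% interval -0.89 to 0.12, adjusted p = 0.704), and between 4T1 and 67NR lungs 0.35 (adjusted p = 0.649).

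Hsp90aa1 encodes the inducible HSP90. Its probe set 1438902_a_at had 6173, 7136, 6411 and 7366 in 4T1 lungs, 6588, 8117, 6944, 7465 and 7819 in 67NR lungs, and 5555, 7088, 7562, 6179 and 6502 in normal lungs. The 3 groups overlapped. Between 4T1 and 67NR lungs 1438902_a_at differed by -0.125 (95% interval -0.32 to 0.07, adjusted p = 0.659). Of the same gene, 1437497_a_at differed by -0.307 (adjusted p = 0.48). The largest difference was that of 1426645_at, -0.36 (95% interval -0.72 to 0, adjusted p = 0.446). Hspb1, a small heat shock protein that holds unfolded protein and acts on actin filaments, had 1900, 2757, 1855 and 2956 (1425964_x_at) in 4T1 lungs, 2193, 3631, 2418, 3498 and 3416 in 67NR lungs, and 1648, 2461, 3767, 1451 and 1515 in normal lungs. All 5 67NR arrays were above the 3 lowest normal arrays, but the groups overlapped. Hspb1 was highest of all on normal replicate 3 (3767), and higher on normal replicate 2 (2461) than on 67NR replicates 1 and 3. Its difference between 67NR and normal lungs was 0.55 (SE 0.25, 95% interval 0.01 to 1.09, unadjusted p = 0.0459, adjusted p = 0.581), and 1422943_a_at gave 0.33 (adjusted p = 0.645).

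Hspd1 and Hspe1 encode mitochondrial HSP60 and HSP10. Hspd1 (1426351_at) had 2514, 2909, 2510 and 3135 in 4T1 lungs, 2628, 3586, 2822, 3640 and 3311 in 67NR lungs, and 2508, 2817, 3629, 2386 and 2696 in normal lungs. Hspe1 (1450668_s_at) had 1669, 1796, 1541 and 1903 in 4T1 lungs, 1344, 2051, 1569, 2233 and 2030 in 67NR lungs, and 1450, 1722, 2063, 1496 and 1570 in normal lungs. For both genes the groups overlapped. Hspd1 differed by 0.19 between 67NR and normal lungs (95% interval -0.07 to 0.45, adjusted p = 0.716), and Hspe1 by 0.14 (95% interval -0.15 to 0.42, adjusted p = 0.829).

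**Figure D2:**
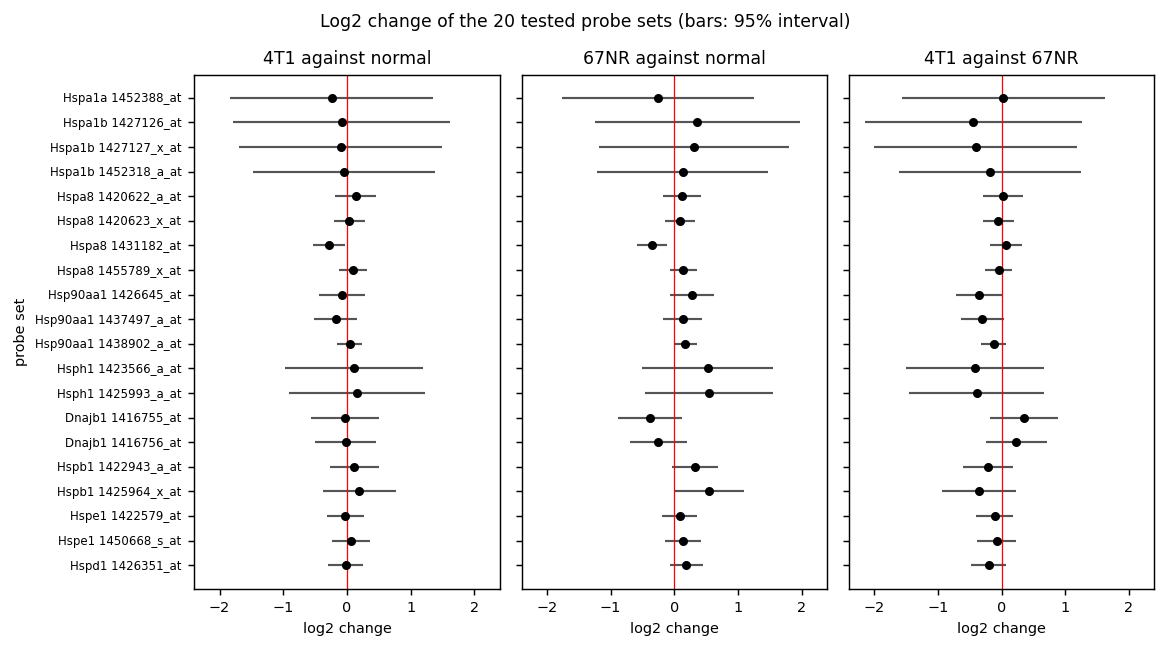
Each row gives the log2 change of a tested member probe set with its 95% interval, for 4T1 against normal, 67NR against normal and 4T1 against 67NR lungs. The widest intervals are those of Hspa1a and Hspa1b, and most of the others lie within 1 on either side of 0.

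Of the 22 probe sets, 20 passed the level filter, and 2 of Hsp90aa1 (1433251_at and 1441827_x_at) did not. In 4T1 against normal lungs limma called 0 of the 20 at an adjusted p under 0.05 (0.3% of the 20975 probe sets tested were called), with 0 higher (0.291% of all) and 0 lower (0.00954% of all). There 1 of the 20 had an unadjusted p under 0.05 (6.44% of all), and 0 lay wholly above (1.34% of all) or wholly below (1.48% of all) the normal arrays. In 67NR against normal lungs 0 were called (0% of all), and 2 had an unadjusted p under 0.05 (8.52% of all). In 4T1 against 67NR lungs 0 were called (0.453% of all), with 0 higher (0.348% of all) and 0 lower (0.105% of all). There 0 had an unadjusted p under 0.05 (11.3% of all), and 0 lay wholly above (1.87% of all) or wholly below (2.23% of all) the 67NR arrays. No comparison held a called member, and 1, 2 and 0 of 20 at an unadjusted p under 0.05 are close to or below the shares of all probe sets. Hspa8 1431182_at, tested only through its normal arrays, is the 1 in 4T1 and 1 of the 2 in 67NR against normal lungs. The members' median difference was -0.02 in 4T1 against normal lungs, 0.14 in 67NR against normal lungs and -0.15 in 4T1 against 67NR lungs, beside -0.004, 0.001 and -0.006 for all probe sets tested in the same order. These comparisons share arrays with each other. In 67NR against normal lungs 16 of the 20 were above 0, and in 4T1 against 67NR lungs 15 were below 0. The shares of all probe sets on each side of 0 were not counted, but their medians above lie near 0. The 20 probe sets come from 9 genes that tended to move together, so they are not 20 separate signs. Both counts rest on the same 67NR arrays. Over 27 alternative settings the median in 67NR against normal lungs ran from 0.061 to 0.305. It was highest without 67NR replicates 1 and 3, the arrays lowest in clock output, and again 0 members were called. Replicate 1 was also the 67NR array with the lowest mean of the members (-0.57), so this setting leaves out the lowest 67NR array.

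Lungs of the same group differed most in Hspa1a, Hspa1b and Hsph1 among the members. The within-group SD of Hspa1b (1427126_at) was 1.34 on the log2 scale, rank 4 of 20975, and that of Hspa1a was 1.25, rank 7. Hsph1 followed at 0.85 and 0.83, ranks 54 and 57. The median over all probe sets tested was 0.13, and probe sets of like level had medians of 0.09 for Hspa1b and 0.11 for Hsph1. Hspb1 (0.45 and 0.30) and Dnajb1 (0.41 and 0.37) were spread less, and Hspd1 (0.21), Hspe1 (0.23 and 0.22), Hsp90aa1 (0.14 to 0.28) and Hspa8 (0.16 to 0.24) less still. The least spread of the 20 was Hsp90aa1 1438902_a_at, at 0.14 and rank 8511. All 20 were above that median, and 6 were among the top 1% of probe sets. The other probe sets of the top 20 included the antimicrobial lectin Reg3g and the clock output gene Dbp.

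**Figure D3:**
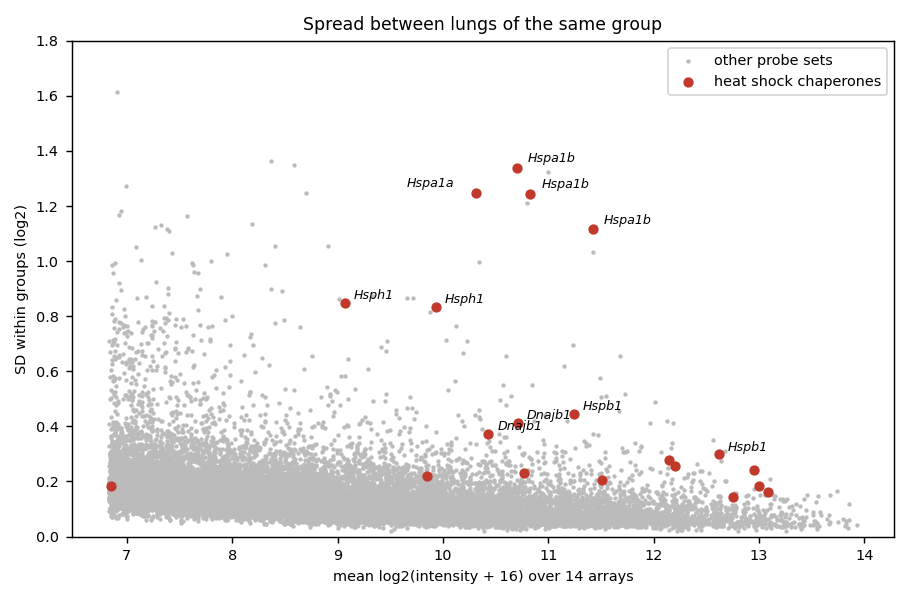
The horizontal axis is the mean log2(intensity + 16) over 14 arrays and the vertical axis the SD within groups, with heat shock chaperone probe sets in red and other probe sets in grey. Hspa1a, Hspa1b and Hsph1 stand above nearly all probe sets of like level, at 0.83 to 1.34.

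Lungs high in a given member tended to be high in the others. The mean of the 9 brightest probe sets, each centred on its own mean, was -0.22, 0.25, -0.60 and 0.46 in 4T1 lungs, -0.57, 0.31, 0.20, 0.48 and -0.09 in 67NR lungs, and -0.22, 0.33, 0.63, -0.67 and -0.30 in normal lungs. Members were centred but not scaled, so this mean mostly follows Hspa1b, Hspa1a and Hsph1 (r of 0.98, 0.94 and 0.93 with it, against 0.66 to 0.81 for the other 6), here and in each later comparison with the members' mean. The lowest and the highest lungs were both normal ones, and the group means were -0.03 ± 0.48, 0.07 ± 0.41 and -0.04 ± 0.52 for 4T1, 67NR and normal lungs (SD, n = 4, 5 and 5). Over the 36 pairs of member genes, r ran from 0.07 to 0.97 with a median of 0.72 (n = 14 arrays), and 29 pairs were above 0.5. With group means subtracted, the median was 0.76 and 31 pairs were above 0.5. The points share arrays and their normalisation. Hsph1 and Hspd1 had an r of 0.94, and Hspb1 and Hspd1 0.92. Dnajb1 went with Hspa1a (0.84) but had an r of 0.07 with Hsp90aa1, 0.11 with Hspb1 and 0.15 with Hspe1. With group means subtracted, these were 0.90 with Hspa1a, 0.37 with Hsp90aa1, 0.39 with Hspb1 and 0.30 with Hspe1.

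**Figure D4:**
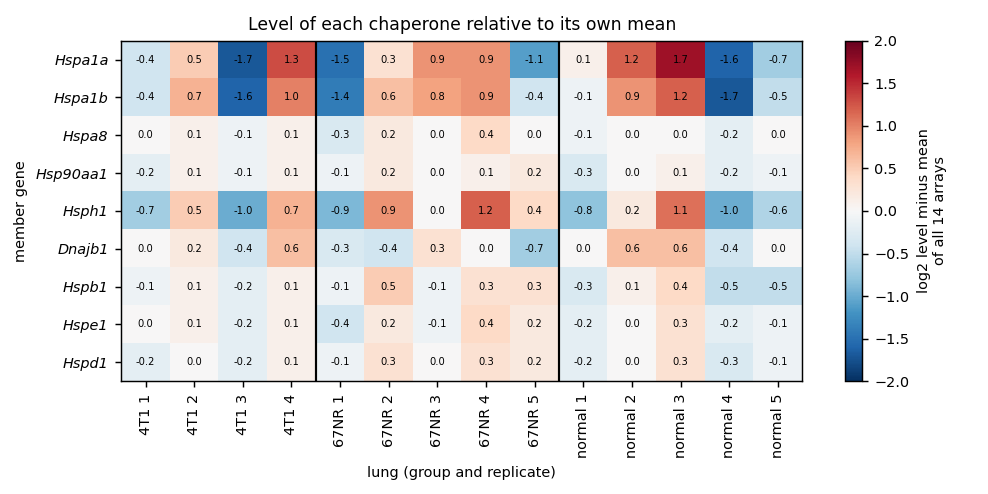
Rows are member genes, columns the 14 lungs by group and replicate, and colours and printed numbers give the log2 level minus the mean over all arrays. 4T1 replicate 3, 67NR replicate 1 and normal replicate 4 are blue for Hspa1a, Hspa1b and Hsph1, and normal replicate 3 is red.

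Dnajb1 and Hspb1 were not ordered alike in 67NR lungs. The ratio of Dnajb1 (1416755_at) to Hspb1 (1422943_a_at) intensity, a pair chosen after its values were seen, was 0.294, 0.289, 0.235 and 0.356 in 4T1 lungs, 0.225, 0.14, 0.369, 0.205 and 0.126 in 67NR lungs, and 0.329, 0.373, 0.304, 0.267 and 0.354 in normal lungs. All but replicate 3 of the 67NR arrays were below every normal array, and so was 4T1 replicate 3 (0.235). How often other pairs of genes part the arrays in this way was not counted. The ratio was not tested.

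**Figure D5:**
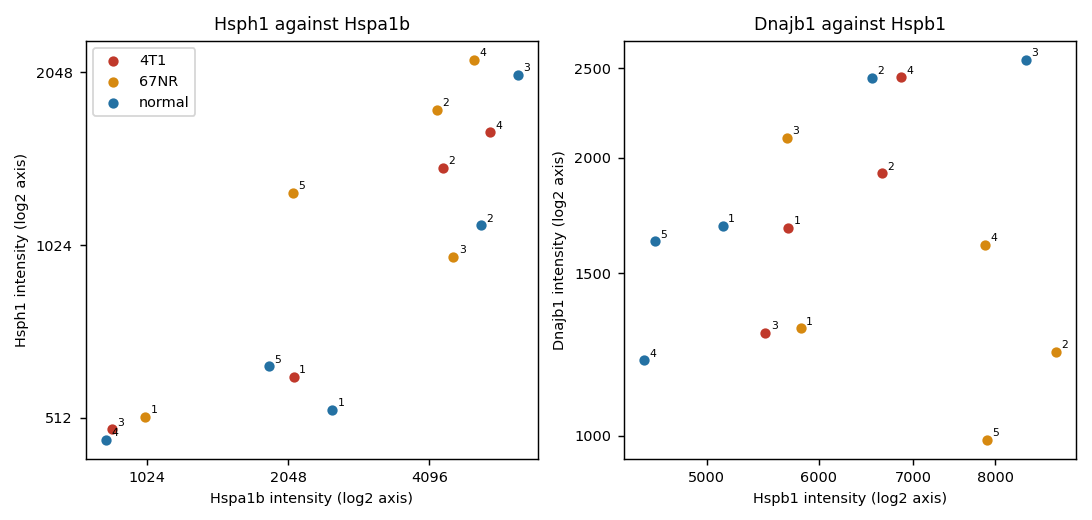
Intensities (log2 axes) of Hsph1 against Hspa1b, and of Dnajb1 against Hspb1, with each lung numbered by replicate. In the right panel 67NR replicates 2, 4 and 5 lie at high Hspb1 (7868 to 8833) with Dnajb1 at 991 to 1611.

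Among 12266 other genes, Dnaja1 was most like the members (r = 0.98 with their mean, n = 14 arrays), an HSP70 J-domain partner with 3089 to 6120 in 4T1 lungs, 3100 to 6040 in 67NR lungs and 3225 to 6795 in normal lungs. Cacybp, a calcyclin-binding protein, followed (0.95) and so did Trim65, a ubiquitin ligase (0.95), and Chordc1, an HSP90 partner (0.94). Next were Ccdc117 (0.92), Sec14l1 (0.89), the splicing factor Sfpq (0.88), Atp10d (0.87), the topoisomerase Top1 (0.86) and the RNA-binding Rbpms (0.86). The median r of all genes was -0.06. The 3 most opposite were Inpp5f (-0.94), Nudt7 (-0.92) and Ly86 (-0.90). Of the 10 genes most like, 6 had a promoter entry and 1, Dnaja1, held GAANNTTC or TTCNNGAA (16.7% of the 6, against 12.1% of all genes compared).

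The other genes of protein folding were taken as 9 lists of 84 genes, of which 81 had a probe set and 77 were tested. In each of the 3 comparisons limma called 0 in either direction, and at an unadjusted p under 0.05 there were 1 in 4T1 against normal lungs (1.3%, against 6.44% of all probe sets), 11 in 67NR against normal lungs (14.3%, against 8.52%) and 8 in 4T1 against 67NR lungs (10.4%, against 11.3%). The smallest adjusted p was 0.543 in 4T1 against normal, 0.331 in 67NR against normal and 0.218 in 4T1 against 67NR lungs. The medians were 0.01, 0.05 and -0.04. Of the 77, 27 (35.1%) had an r above 0.5 with the mean of the members, against 6.29% of all genes, as a description over 14 arrays. The median r was 0.54 for J-domain proteins, 0.48 for other HSP70 and HSP110 proteins and 0.48 for the CCT chaperonin, which folds actin and tubulin. It was 0.31 for chaperones of the endoplasmic reticulum, 0.26 for HSP90 proteins and cochaperones, 0.19 for other small heat shock proteins, 0.11 for HSP70 cochaperones and 0.10 for mitochondrial proteostasis. The lowest median was that of the list of heat shock factors and their regulators, at -0.08, near the -0.06 of all genes. Of the 6 genes of that list, 5 had a probe set and 4 were tested. Hsf1, the gene of heat shock factor 1, had none with its symbol alone, and Hsf2 was not tested. The list therefore does not show how Hsf1 moved with the members. Above 0.5 was 1 of 4, Bag3 at 0.65, while Hsbp1 had 0.12, Hsf5 -0.28 and Hsf4 -0.33. Hsf5 (92 to 152) and Hsf4 (110 to 156) were dim, near the array medians of 113.2 to 116.1.

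The chaperones of the endoplasmic reticulum, which fold secreted protein, stood at a median of 0.22 in 67NR against normal lungs, where all 11 were above 0 and 0 were called. Pdia3, a disulphide isomerase, had 0.22 (SE 0.05, adjusted p = 0.331) and Hsp90b1, the reticulum's HSP90, 0.18 (adjusted p = 0.371). In 4T1 against 67NR lungs all 11 were below 0, with a median of -0.15 and 0 called. There Pdia3 stood at -0.16 (adjusted p = 0.218) and Sdf2l1 at -0.29 (adjusted p = 0.260). Both counts of signs rest on the same 67NR arrays. The list summed to 38055 to 46488 in 67NR lungs, 36524 to 38745 in normal lungs and 36778 to 39298 in 4T1 lungs, so the groups overlapped. Over all genes the median in 67NR against normal lungs was -0.002. In the remaining lists, the following genes had the smallest p in 67NR against normal lungs. Among heat shock factors and their regulators they were Hsf5 (-0.18) and Bag3 (0.09), and among other HSP70 proteins Hyou1 (0.23) and Hspa12b (0.45). Among J-domain proteins they were Dnajb2 (0.24) and Dnajc3 (0.14), and among HSP70 cochaperones Bag5 (0.19) and Bag2 (-0.09). Cdc37l1 (-0.14), Cct3 (0.11), Cct8 (0.10), Clpx (0.10), Trap1 (-0.06), Hspb8 (0.16) and Hspb2 (-0.09) closed the lists. The adjusted p of these 15 genes ran from 0.417 to 0.906.

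In 4T1 against normal lungs the genes with the smallest p were again none past the threshold, with adjusted p from 0.543 to 0.97. Hspa14, an HSP70 protein bound to ribosomes, stood at 0.20 (adjusted p = 0.543) and mitochondrial Hspa9 at -0.10. The J-domain genes were Dnajb5 (0.19) and Dnajb12 (0.17), the HSP70 cochaperones Hspbp1 (-0.13) and Grpel1 (-0.09), and the HSP90 genes Trap1 (-0.07) and Hsp90b1 (0.06). The remaining lists gave Hsf4 (-0.14) and Hsbp1 (-0.05), Cryab (0.07) and Hspb8 (0.16), Cct4 (0.07) and Cct2 (0.04), and Hyou1 (0.12) and Pdia3 (0.05), with Grpel1 and Hspa9 for mitochondria. In 4T1 against 67NR lungs the adjusted p ran from 0.218 to 0.683. Hspa14 stood at 0.22 (adjusted p = 0.225) and Hspa4l, an HSP110 relative, at -0.38. The J-domain genes were Dnajb6 (0.12) and Dnajb2 (-0.24), the HSP70 cochaperones Bag5 (-0.14) and Bag2 (0.10), and the HSP90 genes Hsp90b1 (-0.12) and Cdc37l1 (0.11). The remaining lists gave Hsbp1 (-0.07) and Hsf4 (-0.14), Hspb7 (0.23) and Cryab (0.06), Cct8 (-0.12) and Cct7 (-0.09), and Dnaja3 (-0.13) and Grpel1 (-0.08). These values are log2 differences of the brightest probe set, and none passed the threshold.

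Values that could move with the members were set beside them. The Gapdh log2 ratio of 3′ to 5′ probe sets was -0.44 ± 0.04 in 4T1 lungs, -0.49 ± 0.08 in 67NR lungs and -0.47 ± 0.06 in normal lungs (SD, n = 4, 5 and 5). The summed level of neutrophil markers had an r of -0.18 with the members' mean over 14 arrays, and of -0.62 once group means were subtracted from both. Within groups, lungs with more summed neutrophil marker signal thus tended to have less chaperone signal. The sums are of linear intensities, so the brightest markers weigh most in them. Taken singly and without subtracting group means, the 9 neutrophil markers tested had a median r of -0.19 over 14 arrays. That value compares with the -0.18 and not with the -0.62. Among the cell type and gene sets of this paragraph, -0.62 was the value farthest from 0. Clock output had 0.24, and 0.45 with group means subtracted. Alveolar type 1 markers had 0.44 on both scales, club cell markers 0.27 and 0.28, and alveolar type 2 markers 0.24 and 0.26. Adipose markers had -0.31 and -0.33, erythroid markers -0.26 and -0.34, and smooth muscle markers -0.15 and -0.17. Cardiac (0.06 and 0.06), skeletal muscle (0.07 and 0.04), endothelial (-0.02 and -0.10) and ciliated cell markers (0.14 and 0.19) and immediate early genes (0.12 and 0.18) were nearer 0. The Gapdh ratio had an r of 0.15 with the members' mean. Of the 9 neutrophil markers tested, limma called 8 higher in 4T1 lungs against normal lungs and 8 higher in 4T1 lungs against 67NR lungs. The part of these cell types and gene sets in the members' spread was not tested.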

How the data were processed

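Biotin-labelled cRNA was made from 3 µg of RNA, per the labels' protocols. The authors deposited 1 linear intensity per probe set and array; summarisation and normalisation of those intensities, and the genome build, are not given in the sources used here. Symbols came from the platform annotation of 2016. Of 45101 probe sets, 34958 carried 1 symbol, 932 several and 9211 none here. Intensities became log2(intensity + 16) with no further normalisation. Probe sets in the upper 60% of mean level (20975) were fitted with 1 mean per group over 14 arrays (limma 3.58.1, R 4.3.3, lmFit and eBayes), two-sided, with Benjamini-Hochberg adjustment over all tested and a threshold of 0.05. The steps were tested on simulated data. Named genes were all members, the 2 of each pathway list with the smallest p, and the 10 most and 3 least like the members. The members and lists were chosen with earlier results of these data known. Samples were fitted as unpaired. Of 13 pairs of the same replicate number, 3 had a correlation of deviations over 0.1 (range -0.27 to 0.18), and differently numbered pairs reached 0.29. Such correlations cannot exclude a pairing or a batch. Alternatives covered offsets, filters, normalisation, probe sets per gene, variance models, array weights, groups fitted, a replicate block and arrays left out. Precision is limited by the 4 or 5 arrays per group.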

Additional observations from a re-analysis of the deposited data

Results flagged for a closer look

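A single value stood far from the rest of its group among 60 groups examined. The limit is one that about 1 in 20 groups pass by chance, so 1 flag in 60 groups is no more than chance gives. The Hspa8 probe set 1431182_at had a log2 value of 7.13 in 4T1 replicate 4 (intensity 124), against 6.69 in the nearest of the other 4T1 arrays. The gap was 0.866 of the range of the group, over a limit of 0.829. The brighter probe sets of Hspa8 did not show it.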

How the results depend on the processing

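Members called numbered 0 in each of the 3 comparisons under all 27 alternatives run. The members' median ran from -0.128 to 0.168 in 4T1 against normal, 0.061 to 0.305 in 67NR against normal and -0.322 to 0.004 in 4T1 against 67NR lungs. The sign of 82 of 1524 member values turned, none of them called, 64 of them when 1 array was left out and 15 with array weights. Calls over all probe sets in 67NR against normal lungs numbered 0, but 1 without a filter on level, 2 with 67NR replicates 1 and 3 left out, and 0 to 1 with 1 array left out (1 without 67NR replicate 1, and 1 without normal replicate 1). Those in 4T1 against 67NR lungs numbered 95, but 198 with array weights, 49 with only the groups compared, 53 with 67NR replicates 1 and 3 left out, and 49 to 139 with 1 array left out (lowest when 4T1 replicate 4 was dropped; 58 when 4T1 replicate 1 and 60 when 67NR replicate 2 was dropped; highest when 67NR replicate 5 was). The cause was not tested. With the replicate number as a replicate block, 55, 0 and 64 probe sets were called in 4T1 against normal, 67NR against normal and 4T1 against 67NR lungs, and 0 members. The wide intervals of Hspa1a and Hspa1b go with their spread within groups.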
